A study of Homo sapiens with 36 samples.

Results

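The 40S gradient fraction of unmodified (WT) HUES6 cells was compared with the unfractionated Input of the same cells. HUES6 is an established human embryonic stem cell line, grown here in FTDA, a defined medium for pluripotent cells. The comparison took 3 WT 40S libraries and 3 WT Input libraries, matched by replicate number. The number stands beside the genotype in each sample's description and is taken as the culture, although the labels do not say what it marks. Transcripts were included when 10 TPM or more was listed in at least 3 of the 6 libraries. TPM is an abundance unit scaled by transcript length to a library total of 1000000. This gave 7189 of 223367 Ensembl transcript IDs.

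The whole study held 36 libraries, from RBPMS knockout (KO) and WT cells, 6 fractions and 3 replicates of each. RBPMS is an RNA-binding protein. All cells received cycloheximide at 100 ng/ml for 5 min, so both WT 40S and WT Input come from treated cells and no untreated sample is compared here. The other WT fractions were 80S, disome, Polysome1 and Polysome2. The labels do not state whether replicates of a genotype are separate clones, cultures or days, so p-values measure only the spread between these samples, which may be technical. The main model pools that spread over all 18 WT libraries and not only the 6 compared, although most transcripts varied more in 40S than in Input.

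In polysome profiling a lysate is sedimented through a gradient, so that RNA bound by more ribosomes travels further. The 40S region holds small ribosomal subunits, including those that have joined an mRNA but not yet met a large subunit, together with other particles of like density. The 80S region holds single ribosomes, the disome region pairs of them, and polysome fractions mRNAs carrying several. Cycloheximide blocks elongation and holds elongating ribosomes on the mRNA. Input is the lysate before separation and holds mRNA from every region. An equal mass of RNA from every sample went into a poly(A) library kit, so TPM describes the make-up of a fraction and not how much RNA it held. A lower TPM in 40S therefore cannot be told apart from a gain of other transcripts in the same library.

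The sources used here pair no transcript with a gene. Roles, gene families, markers of the stem cell state and sequences are accordingly not given, and the transcripts are described by their levels and their place in the gradient.

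The 40S libraries were narrower than Input. At 1 TPM or more, 14712, 15949 and 8956 transcripts were listed in 40S replicates 1, 2 and 3, against 35361, 34899 and 38389 in Input. The 2 groups did not overlap, and the ratio of 40S to Input within a replicate number averaged 0.369 ± 0.119 (SD, n = 3). A paired exact permutation test on 3 pairs cannot give a two-sided p below 0.25, so no p is given for such library-level values. The 100 most abundant transcripts of each library took 70.0%, 70.7% and 79.3% of all TPM in 40S, against 41.0%, 39.1% and 39.3% in Input. This share was higher in all 3 pairs, with a mean ratio of 1.84 ± 0.158 (SD, n = 3). Sequencing depth is not kept in TPM, so the number of reads behind these lists is unknown and its part in them was not tested.

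**Figure D1:**
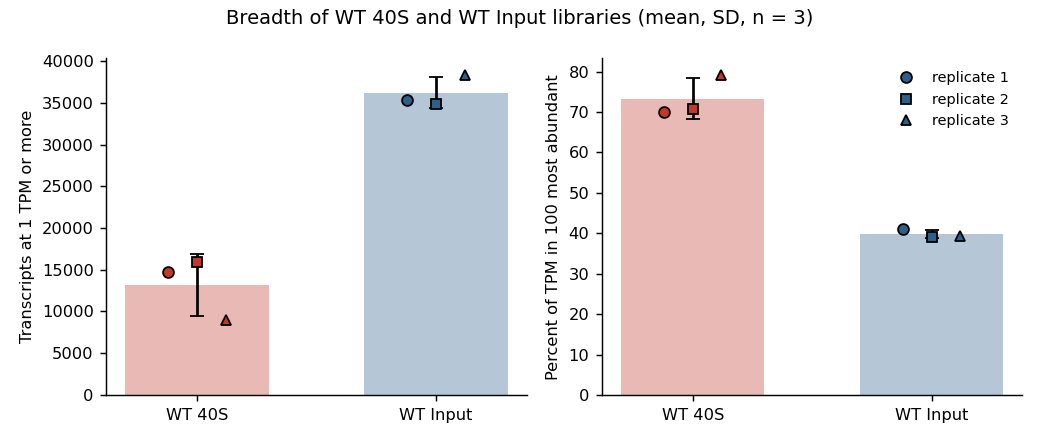
Left, number of transcripts listed at 1 TPM or more; right, percent of TPM taken by the 100 most abundant transcripts, in WT 40S and WT Input. Bars are means, whiskers are SD (n = 3) and symbols are replicates; the 3 40S libraries lie between 8956 and 15949 transcripts and the 3 Input libraries between 34899 and 38389.

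One 40S library stood apart. Across the 7189 transcripts, log2(TPM + 1) values of 40S replicates 1 and 2 had a Pearson r of 0.957 with each other, and of 0.713 and 0.708 with 40S replicate 3. The Input libraries had r of 0.918 to 0.958 among themselves. These are correlations across transcripts, which are not independent replicates. In 40S replicate 3, 2106 of the 7189 transcripts were listed at 0, against 316 and 347 in 40S replicates 1 and 2 and 9 to 19 in the Input libraries. The spread was accordingly wider in 40S: the median SD over 3 libraries was 0.86 on the log2 scale in 40S and 0.24 in Input, and it was larger in 40S for 82.6% of transcripts. The calls, and the main descriptions of the called sets, are given with and without it.

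Most of the 7189 transcripts were a smaller part of 40S than of Input. The median difference, 40S minus Input on the log2(TPM + 1) scale, was -2.71. The middle 90% of transcripts ran from -4.78 to 0.69. Over all 29276 transcripts tested the median was -1.64. Within the replicates the medians were -2.08, -1.98 and -3.94, so the third was the lowest, and 6307, 6379 and 6563 transcripts were lower in 40S. By size, 5933 transcripts were lower by at least 1 log2 unit and 1068 by at least 4, whereas 280 were higher by at least 1 and 22 by at least 4. The other 976 lay within 1 unit of 0.

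**Figure D2:**
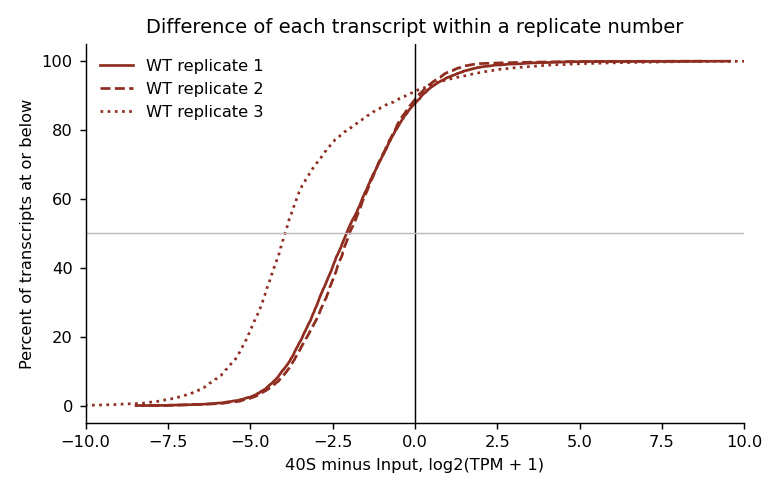
Cumulative percent of the 7189 transcripts (vertical axis) against the 40S minus Input difference in log2(TPM + 1) (horizontal axis), one line for each WT replicate number. Replicates 1 and 2 have medians of -2.08 and -1.98, and the line of replicate 3 lies further left with a median of -3.94.

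A limma linear model of log2(TPM + 1), with fraction and replicate number as terms and all 18 WT libraries sharing one spread per transcript, called 254 transcripts (3.53%) higher in 40S at an adjusted p under 0.05. The same rule called 2.81% of all tested transcripts higher. It called 5674 transcripts (78.9%) lower, against 74.5% of all tested transcripts, and 1261 were not called. In either direction 82.5% of the 7189 were called, against 77.3% of all tested, so the shares lie near the background. The 254 had a median difference of 1.87 and ranged from 0.66 to 7.58. The 5674 had a median of -3.09 and ranged from -7.65 to -0.67. Without regard to the model, all 3 40S libraries lay above all 3 Input libraries for 270 transcripts (3.76%, against 2.84% of all tested) and below them for 5711 (79.4%, against 74.7%). By sign alone, 349 transcripts were higher in 40S in all 3 replicates (4.85%, against 4.12% of all tested) and 6005 were lower in all 3 (83.5%, against 80.3%).

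These calls describe TPM as deposited, and another scaling moves them. With libraries scaled by median-of-ratios size factors, which shifts the median of all tested transcripts to -0.65, 1528 transcripts were called higher and 2854 lower, a share of lower calls of 65.1% against 95.7% without it. This scaling multiplies each library by 1 factor and moves all transcripts of 40S up against Input, so that the 254 stay higher is fixed by it. Of the 5674, 413 were then called higher. With quantile normalization the counts were 1029 higher and 3350 lower, and 76.5% of calls were lower. Scaled to the ERCC spike-ins, 12 were called higher and 6210 lower.

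The count of higher calls also depends on the libraries in the model. Fitted to the 6 compared libraries alone, with their own spread and 2 residual degrees of freedom in place of 10, 114 transcripts were called higher and 4811 lower. Without replicate number 1 the 18-library design called 169 higher. Without 40S replicate 3, 354 were called higher and 5275 lower, of which 200 and 5228 had been called the same way with it. The median difference was then -2.15.

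**Figure D3:**
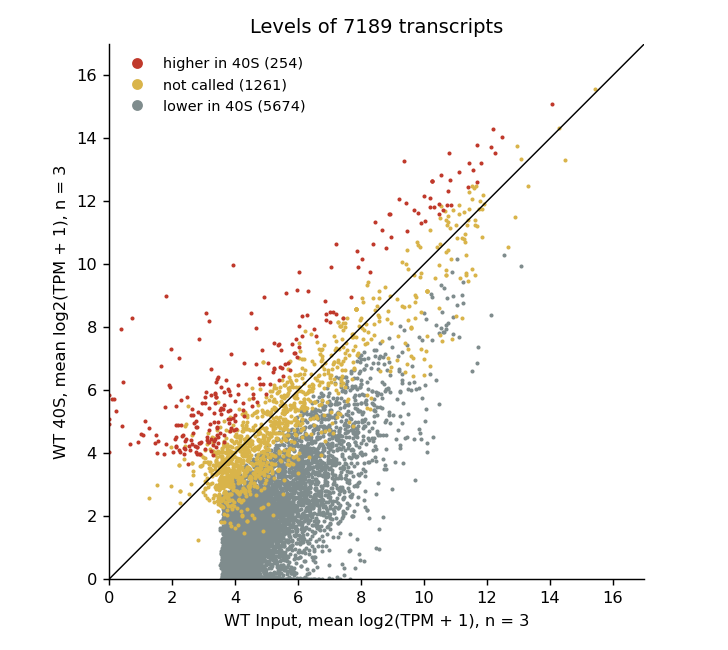
Mean log2(TPM + 1) in WT 40S (vertical axis) against WT Input (horizontal axis) for 7189 transcripts, n = 3 libraries each, with the line of equality. Red points are the 254 called higher in 40S, yellow points the 1261 not called and grey points the 5674 called lower; most points lie below the line.

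How a transcript entered the set bears on these counts. Of the 7189, 3856 reached 10 TPM in all 3 Input libraries and in no 40S library, and 71 did so in all 3 40S libraries and no Input library. Such transcripts had to differ between the groups, so the counts above are a description. A further 1024 reached 10 TPM in all 6 libraries, with a median difference of -0.47, 119 called higher and 367 called lower. The 1024 hold no transcript that was near 0 in either group, so their values too are set in part by how they were picked. The other 2238 fell between these classes. At the edge of the rule, 511 transcripts with a third-highest value of 10 to 11 TPM had a median difference of -2.62, and 588 excluded ones at 9 to 10 TPM had -2.56. Values were identical to those of another included transcript in all 36 libraries for 352 transcripts, so these are not separate measurements.

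The same limit holds for a split by abundance. When the 7189 were split into 5 bins of near-equal size by their mean log2(TPM + 1) over the 6 libraries, the median difference was -3.54, -2.89, -2.40, -2.21 and -1.56 from the least to the most abundant bin. Higher calls numbered 6, 21, 43, 69 and 115 in the same order, and lower calls 1424, 1322, 1101, 1015 and 812. A transcript with 3 libraries at 10 TPM can have a low mean over 6 only if the others lie near 0, so the inclusion rule forces large differences in the low bins. No trend with abundance is read from these values.

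The transcripts higher in 40S made up much of that fraction. Together the 254 took 31.3%, 27.03% and 66.5% of all TPM in 40S replicates 1, 2 and 3, against 11.3%, 10.7% and 8.61% in Input. Their share in 40S replicate 3 was more than that of either other replicate. Because they were chosen for this difference, the shares are a description. The 354 called higher without 40S replicate 3 took 61.6% and 57.3% of TPM in 40S replicates 1 and 2, against 23.9%, 24.9% and 22.3% in Input. The 5674 took 10.1%, 10.8% and 2.34% of TPM in 40S, against 39.8%, 40.04% and 40.4% in Input. The 5275 called lower without 40S replicate 3 took 8.24% and 9.02% in the other 40S libraries, against 36.8%, 36.8% and 37.7% in Input. The 1261 transcripts not called took the largest part of 40S in replicates 1 and 2, at 54.8% and 58.0%, but 17.6% in replicate 3, against 36.7%, 37.2% and 36.1% in Input.

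The most abundant transcripts of the 2 fractions overlapped in part. Of the 100 with the highest mean in 40S and the 100 with the highest mean in Input, 65 were shared. Among the 100 of 40S, 48 were called higher and 1 lower, and among the 100 of Input 21 were called higher and 22 lower. Of all tested transcripts, 2.81% were called higher and 74.5% lower. Each list is ranked by a mean that also enters the difference, so these counts are set in part by the ranking. The transcript with the highest mean in 40S had 78528, 129131 and 11405 TPM there, against 40752, 38167 and 54211 TPM in Input. It was above its Input in replicates 1 and 2 and below it in replicate 3, and the difference of 0.15 (SE 0.75) was not called (limma adjusted p = 0.8573). The second had 6864, 1030 and 141391 TPM in 40S, against 434, 1035 and 623 TPM in Input. It alone made up 14.1% of 40S replicate 3, and 0.103% of replicate 2. Its difference of 3.93 (SE 1.25, limma adjusted p = 0.01039) was 2.25 (SE 1.08) and no longer called without 40S replicate 3 (limma adjusted p = 0.07741).

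Other leading 40S transcripts were closer between replicates. The fifth by 40S mean had 18322, 16230 and 27186 TPM in 40S, against 4631, 5896 and 3680 TPM in Input. The groups did not overlap, and the difference was 2.11 (SE 0.39, limma adjusted p = 0.000264). Of the 10 leading 40S transcripts, 4 were also among the 10 leading ones of Input.

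The other WT fractions were not used to form the contrast itself, although they shared in the spread behind the calls. In these libraries the transcripts higher in 40S and those lower in 40S stood in opposite order along the gradient. The difference of Polysome2 minus 80S had medians of -1.76, -1.79 and -1.70 in replicates 1, 2 and 3 for the 254 higher in 40S. For the 5674 lower in 40S the medians were 1.41, 1.42 and 1.62, and for all 7189 they were 1.09, 1.05 and 1.31. The 1261 not called had medians of -0.77, -1.17 and -0.69, so a negative median was not particular to the 254. The medians of the 254 lay below those of the 5674 in every replicate. Polysome2 lay below 80S in all 3 replicates for 203 of the 254 (79.9%), for 497 of the 5674 (8.76%) and for 1415 of all 7189 (19.7%). The opposite held for 6 (2.36%), 4342 (76.5%) and 4537 (63.1%). With levels rescaled by median-of-ratios, 224 of the 254 (88.2%) and 857 of the 5674 (15.1%) lay lower in Polysome2, and the medians of both sets kept their signs. Chosen without 40S replicate 3, 274 of 354 transcripts higher in 40S (77.4%) and 373 of 5275 lower in 40S (7.07%) did so on the TPM scale.

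The peak of each transcript among the 4 ribosome-bound fractions showed the same split. Of the 254 higher in 40S, the highest mean was in 80S for 146, in disome for 72, in Polysome1 for 19 and in Polysome2 for 17. Of the 5674 lower in 40S the counts were 167, 478, 1301 and 3728 in the same order, and of all 7189 they were 710, 911, 1614 and 3954. As a share, 65.7% of the 5674, 6.69% of the 254 and 55.0% of the 7189 peaked in Polysome2, so the 5674 lay nearer to the whole than the 254 did. Of the 1261 not called, 16.6% peaked in Polysome2 and 31.5% in 80S. In the sets called without 40S replicate 3, 234 of the 354 peaked in 80S and 3625 of the 5275 in Polysome2. Means of the 5674 climbed at each step from 80S through disome and Polysome1 to Polysome2 for 2835 of them, against 5 of the 254 and 2927 of all 7189 (40.7%). Because TPM is relative within each library, these orders describe the make-up of fractions and not how many ribosomes a transcript carried.

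Levels in 40S itself were not the top of the gradient for most of the 254. Their median log2(TPM + 1) was 5.90 ± 0.82 in 40S, 6.25 ± 0.35 in 80S, 6.28 ± 0.55 in the disome fraction, 5.83 ± 0.09 in Polysome1, 4.60 ± 0.26 in Polysome2 and 3.88 ± 0.26 in Input (SD, n = 3 each). The ranges of 1 SD around the first 4 of these means overlap. Of the 254, 109 had their highest mean of the 6 fractions in 40S, 63 in 80S and 59 in disome. The 5674 had a median of 1.72 ± 1.11 in 40S, 3.55 ± 0.22 in 80S, 4.12 ± 0.75 in the disome fraction, 4.58 ± 0.12 in Polysome1, 4.93 ± 0.06 in Polysome2 and 4.83 ± 0.13 in Input. For these, 40S was the lowest fraction in each replicate.

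**Figure D4:**
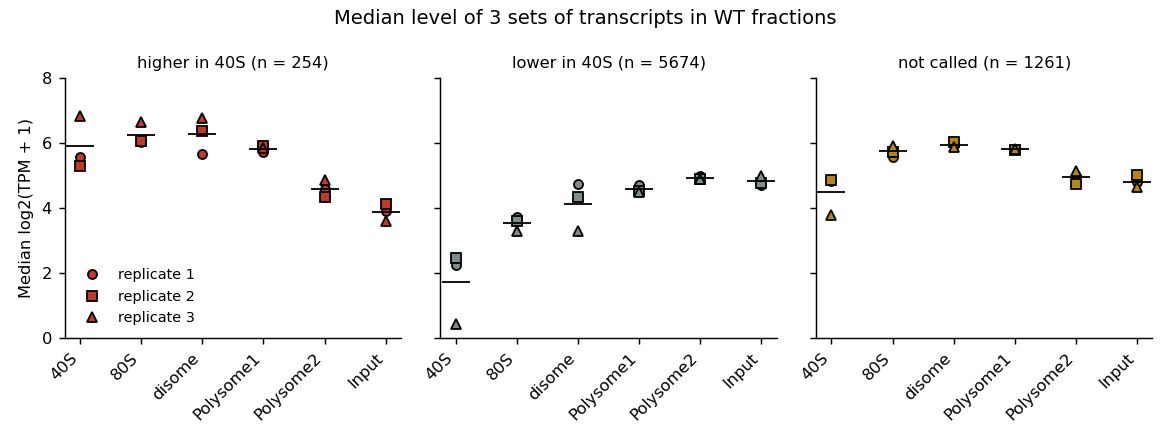
Median log2(TPM + 1) of the transcripts higher in 40S (254), lower in 40S (5674) and not called (1261) in the WT fractions, ordered along the gradient with Input last. Symbols are replicates and dashes their mean (n = 3); the 254 lie near 6 from 40S to Polysome1 and lower in Polysome2 and Input, and the 5674 are lowest in 40S.

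For some transcripts the 40S libraries lay beyond every other WT library. Whether their number exceeds that of a random order of libraries was not tested. For 29 transcripts all 3 40S libraries lay above all 15 other WT libraries (0.403%, against 0.15% of all tested). Judged on 40S replicates 1 and 2 alone, the number was 88 (1.22%, against 0.625% of all tested). A rule on fewer libraries is easier to meet, so the 88 and the 29 are not like counts. Of the 29, 26 were called higher than Input. The 29 took 12.9% ± 1.10 of TPM in 40S and 4.43% ± 0.29 in Input (SD, n = 3 each). For 3325 transcripts all 3 40S libraries lay below all 15 others (46.3%, against 32.9% of all tested), and 3262 of them were called lower than Input. On 40S replicates 1 and 2 alone the number was 3420 (47.6%, against 34.3%). The 3325 took 3.88% ± 2.04 of TPM in 40S and 21.4% ± 0.46 in Input. The median gap to the other WT libraries was 1.26-fold for the 29 and 1.55-fold for the 3325. In KO, 0 of the 29 also lay above the other libraries and 268 of the 3325 also lay below them. The share of all tested transcripts that did so in KO is not given here. Neither count is therefore read as more or fewer than the background. That most of the 29 and the 3325 were called follows in large part from how they were picked.

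Some transcripts were listed in only 1 of the 2 fractions. In all 3 40S libraries 176 were listed at 0, with Input means from 10.8 to 200.5 TPM and a median of 22.1. Of these, 9 reached 1 TPM in all 3 80S libraries, 11 in all disome, 62 in all Polysome1 and 90 in all Polysome2 libraries, so that the count grew along the gradient. Over all included transcripts, the mean number below 1 TPM was 459 ± 274 in WT 80S and 466 ± 420 in disome. It was 203.7 ± 34.2 in Polysome1 and 162.7 ± 53.8 in Polysome2 (SD, n = 3 each). Listing was thus also wider in the polysome fractions for the whole set, and the growth among the 176 was not tested against it. In 40S replicates 1 and 2 alone, 190 were listed at 0, of which 9, 12, 67 and 97 reached 1 TPM in the same fractions. The reverse case, listed at 0 in all 3 Input libraries, held 4 transcripts with 40S values of 10.4 to 154.5 TPM. Of these 4, 3 were at 1 TPM or more in every library of 80S, disome, Polysome1 and Polysome2. A listed 0 is an estimate and not a count, so no fold is given against it.

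The 4 transcripts named are the 2 largest differences in each direction among those called, without overlap and of one sign in all replicates. Each reached 10 TPM only in the group where it is high. Their differences and adjusted p-values were part of the choice, so they describe these transcripts and add no further support. ENST00000417615.1 had 283, 229 and 468 TPM in WT 40S, against 0.680, 1.601 and 0 TPM in WT Input. It was high in every 40S library and near 0 in every Input library. The difference was 7.58 on the log2(TPM + 1) scale (SE 1.09, limma adjusted p = 3.677e-05). It was 532, 246 and 837 TPM in WT 80S, and 224, 600 and 1405 TPM in WT disome. In WT Polysome1 it had 378, 571 and 460 TPM, but 0, 16.8 and 156 TPM in WT Polysome2.

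ENST00000600794.1 had 156, 231 and 397 TPM in WT 40S, against 0, 0 and 1.09 TPM in WT Input. The difference was 7.57 (SE 0.53, limma adjusted p = 3.019e-07). It was also present in every other gradient fraction, with 1124, 557 and 798 TPM in WT 80S and 565, 868 and 353 TPM in WT Polysome2. Input alone was near 0 among the WT fractions, although it is the lysate before separation. The reason was not tested.

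ENST00000643579.1 was listed at 0 in all 3 WT 40S libraries, against 213, 181 and 208 TPM in WT Input. The difference was -7.65 (SE 1.04, limma adjusted p = 2.351e-05). In WT Polysome2 it had 65.0, 16.2 and 121 TPM, below each Input library.

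ENST00000434494.5 had 2.02, 1.38 and 0 TPM in WT 40S, against 329, 327 and 513 TPM in WT Input. The difference was -7.63 (SE 0.69, limma adjusted p = 1.693e-06). Its level in WT 80S was 35.2, 15.1 and 12.7 TPM, and in WT Polysome2 323, 341 and 306 TPM, close to Input. These 4 differences depend on the pseudocount of 1 TPM, because 1 group lies near or at 0, and are not bounds on a fold.

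**Figure D5:**
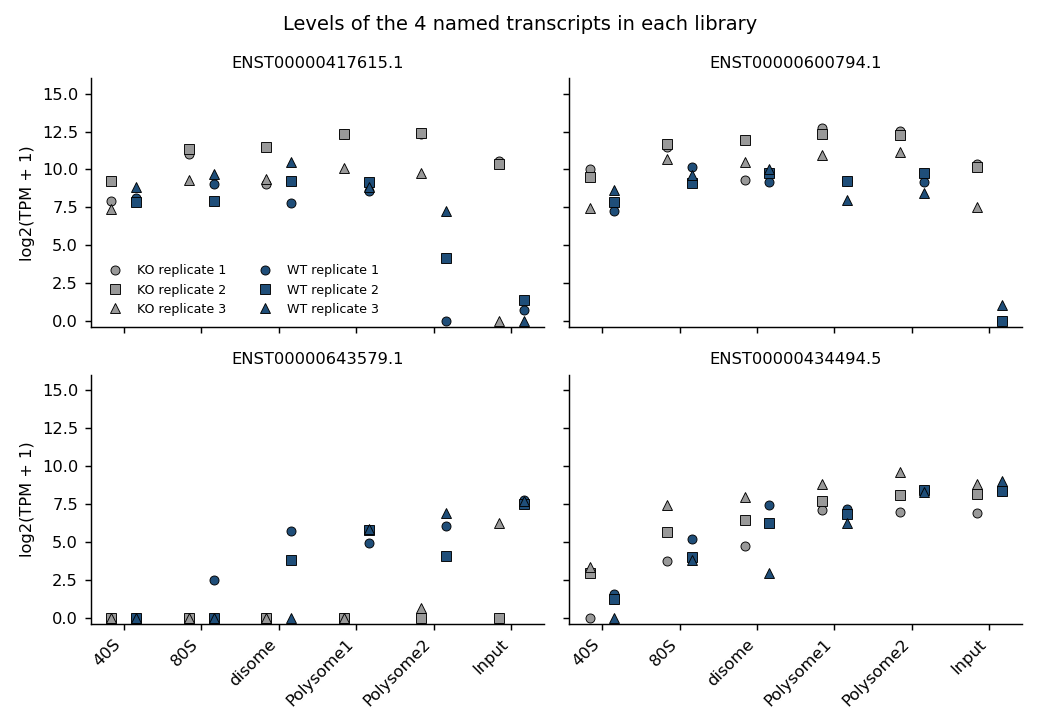
Level of the 4 named transcripts, as log2(TPM + 1), in each fraction, with KO libraries in grey left of WT libraries in blue and a symbol for each replicate. In WT, the upper 2 are high in 40S and near 0 in Input, and the lower 2 are near 0 in 40S and high in Input.

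The KO cultures gave a second set of 40S and Input libraries that the WT calls did not use. Of the 254 transcripts higher in WT 40S, 76, 183 and 224 were higher in 40S than in Input in KO replicates 1, 2 and 3. In all 3 KO replicates 65 of the 254 were higher and 14 lower, against 134 higher and 3823 lower of all 7189. The median differences of the 254 were -0.45, 0.44 and 0.79 in KO, against 1.49, 1.15 and 2.92 in WT. Over all 7189 transcripts, 1140, 908 and 1241 were higher in the same KO replicates. Of the 354 called without WT 40S replicate 3, 60, 167 and 300 were higher in KO, 49 of them in all 3, with medians of -0.80, -0.07 and 0.56. KO replicate 1 therefore had most of the 254 lower in 40S than in Input, unlike the other two.

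Of the 5674 transcripts lower in WT 40S, 3901, 4768 and 5299 were lower in KO 40S than in KO Input, and 3431 were lower in all 3 KO replicates. These are 68.8%, 84.0% and 93.4% of the set, against 70.4%, 79.4% and 82.4% of all 7189, so in KO replicate 1 the set lay slightly below the whole. Of the 5275 called without WT 40S replicate 3, 3644, 4432 and 5024 were lower in KO. The median differences of the 5674 were -0.60, -1.07 and -2.04 in KO, against -2.51, -2.37 and -4.22 in WT. Over all 7189 the KO medians were -0.63, -0.925 and -1.575, so in KO replicate 1 the 5674 were not lower than the whole. The WT medians are those on which the sets were chosen, so their size is not set against KO by test. KO Input also differed between replicates: the 5674 took 11.8%, 20.4% and 36.8% of TPM in KO Input replicates 1, 2 and 3, against 39.8%, 40.04% and 40.4% in WT Input. The part of this difference in the KO values was not tested. The Input of KO replicate 3 is labelled Input2, and the labels do not say why.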

How the data were processed

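The deposited table gives TPM per Ensembl transcript. The submitters' processing notes name kallisto, sleuth and the build hg19, whose versions the sources used here do not give. Per the labels' protocols, libraries came from equal RNA amounts with a stranded poly(A) kit and paired 75 nt reads. Depth is not recoverable from TPM.

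The 92 rows of ERCC spike-ins stayed out of the tests. A minimum of 1 TPM in 3 of the 6 compared libraries left 29276 transcripts, fitted as log2(TPM + 1) with limma 3.58.1 (R 4.3.3, variance trend), with fraction and replicate number as terms, on 18 WT libraries (10 residual degrees of freedom). P-values were adjusted by Benjamini-Hochberg over all 29276, with a threshold of 0.05. Transcripts and tests were chosen with earlier results of these data known. The gene table supplied (59792 genes) held 0 Ensembl IDs, so 30 planned gene lists, marker checks and gene sums were not run. The naming rule takes the largest differences among called, non-overlapping transcripts of one sign in all replicates, limited to 2 each way. The script was tested on simulated data with 200 of 29276 transcripts changed. It called 0.0%, 58.5% and 95.0% of those changed by 1, 2 and 4 log2 units, with 0, 12 and 18 false calls. A transcript not called may therefore still differ. The simulation gave each transcript the same spread in all fractions, unlike the wider spread of 40S in the data. Tables were made with Python 3.11.15, pandas 2.3.3 and numpy 2.4.6.

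The design allowed for a replicate block, which is kept because the comparison is defined by replicate number; the check of pairing is given with the alternatives. Alternatives varied the model, pseudocount, filter, scaling and libraries included.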

Additional observations from a re-analysis of the deposited data

Results flagged for a closer look

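For 3 of the 4 named transcripts the 40S minus Input difference in KO lay far from that in WT, as an interaction term in a limma model of all 36 libraries. They were named for the size of the WT difference, which the term uses again, so a smaller difference in KO follows in part from the choice. The values are therefore a description, with no p. ENST00000417615.1 had a KO minus WT value of -6.38 (SE 1.94), with 245, 591 and 169 TPM in KO 40S, against 1538, 1325 and 0 TPM in KO Input. KO replicates 1 and 2 were lower in 40S than in Input, while KO replicate 3 and all WT replicates were higher. ENST00000600794.1 had a value of -7.93 (SE 0.85), with 1023, 732 and 176 TPM in KO 40S, against 1319, 1148 and 182 TPM in KO Input. It was lower in 40S in all 3 KO replicates. ENST00000643579.1 had a value of 5.57 (SE 1.52). All KO 40S libraries listed it at 0, and KO Input had 0, 0 and 75.2 TPM. KO replicates 1 and 2 thus had no level in either fraction, and a difference of 0 in each. The term takes its size mainly from these replicates. KO replicate 3, with a level in Input, had a difference of -6.25, against -7.74, -7.505 and -7.71 in WT. ENST00000434494.5 had a value of 1.77 (SE 0.85).

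The ERCC spike-ins, which were not part of the comparison, took a larger share of 40S than of Input. They summed to 380, 876 and 97.8 TPM in WT 40S, against 127, 166 and 33.4 TPM in WT Input, a mean ratio within replicate numbers of 3.73 ± 1.33 (SD, n = 3). The ratio was above 1 in all 3 pairs. The amounts of spike-in added are not given in the sources used here.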

How the results depend on the processing

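The 4 named transcripts kept their direction and their call in all 21 alternatives. They were picked as the largest differences without overlap, so this was nearly fixed by the choice. None of the 254 was called lower in any alternative, which median-of-ratios scaling, a shift of each library, fixes by its construction. The counts moved most with scaling. Over all tested transcripts the 18-library model called 823 higher and 21819 lower. Quantile normalization gave 6901 and 7193, and among the 7189 it gave 1029 and 3350 with a median of -1.04 (126 of the 5674 turned higher). Median-of-ratios scaling gave 5154 and 12310, and among the 7189 1528 and 2854 with a median of -0.84. ERCC scaling gave 13 and 9844, and 12 higher among the 7189. Fitting 6 libraries called 114 of the 7189 higher with the replicate block and 147 without it. Library weights, whose estimation did not converge, called 1284 of all tested higher. With no filter on low values 38985 were called lower. Fitting the 7189 alone called 257 and 5684. Leaving out 1 replicate or 1 40S library, some chosen after seeing the data, gave 80 to 354 higher (169 without replicate 1, and 103 in the 6-library model without replicate 2) and 4176 to 5919 lower among the 7189, 576 to 966 and 19230 to 22179 among all tested, and medians of -3.06 to -2.03. The 6-library model without a replicate has 1 residual degree of freedom. Without the replicate block the 18-library model called 231 higher and 5601 lower, so the block changed neither count by over 1.5 times. The numbers share deviations weakly: r between 40S and Input of one number was 0.149, 0.0185 and 0.153, and not every library correlated best with its own number. Polysome2 minus 80S stayed negative in median for the higher set and positive for the lower set under the rescalings and call settings tried, all added after seeing the data; with calls from median-of-ratios scaling 57.7% of the 1528 and 1.61% of the 2854 were lower in Polysome2 in all replicates. The ratio of transcripts listed was 0.447 at 0.1 TPM and 0.342 at 10 TPM. The causes were not tested. Depth is unknown, so the counting error of low TPM values cannot be estimated.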
